A study of Homo sapiens with 6 samples.

Results

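The mitochondrial ribosomal protein genes were taken as the genes whose symbol is MRPL or MRPS followed by a number, with at least 10 reads in at least 3 libraries. Of 23686 gene rows in the deposited count tables, 76 had such a symbol, 47 of the large subunit (MRPL) and 29 of the small subunit (MRPS). All but MRPS24 met the read minimum, which left 75 members, 47 large and 28 small. MRPS24 had between 1 and 7 reads per library and was not tested. RNA from 6 samples of HEK293 cells had been sequenced, a long-established human line that was made from embryonic kidney. The sampled cells all express green fluorescent protein (GFP) and were collected by fluorescence-activated sorting. Before sorting, the 3 co-culture samples had spent 10 h with HEK293 cells that carry DAAO (commonly short for the peroxide-making enzyme D-amino acid oxidase) and produce reactive oxygen species (ROS), with D-alanine at 25 µM. The other 3 samples are titled wild-type controls and were GFP-positive and sorted as well. The labels repeat 1 treatment text for all 6 samples, so whether the controls received D-alanine or partner cells is not said. Nothing in the labels says that replicates came from separate cultures, that the cells were 1 clone, or which promoter drives DAAO or GFP. The p-values therefore measure only the spread between these samples, which may be technical.

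Mitochondrial ribosomes translate the few messenger RNAs encoded by mitochondrial DNA, which specify core subunits of the respiratory chain and of ATP synthase. Their ribosomal RNAs are made inside the organelle, but every one of their proteins is encoded in the nucleus, translated in the cytosol and imported. The large subunit forms peptide bonds and holds the exit tunnel for the nascent chain, while the small subunit binds messenger RNA and reads its codons. Some of these proteins descend from bacterial ribosomal proteins and others arose only in mitochondria.

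The libraries held 19091085 to 36250314 reads assigned to genes on the sequenced strand. The members took up 0.424% ± 0.0116 (SD, n = 3) of these reads in co-culture and 0.456% ± 0.0123 (SD, n = 3) in controls. Each member had between 234 and 5239 reads in a library. Of the 8 HEK293 markers all were tested, and VIM (log2 fold change 0.40, edgeR adjusted p = 0.00793) and INA (0.38, edgeR adjusted p = 0.0118) were higher in co-culture. The summed level of the 8 markers in CPM, reads per gene scaled to a common library size (counts-per-million), was 2144 to 2361 in co-culture and 1771 to 1840 CPM in controls. Of 10 markers of other cell types, CD3E and HBB had 0 reads in every library, and PTPRC, PECAM1, CDH5, ALB and COL1A2 had at most 5. COL1A1 and ACTA2 were the 2 tested, at 66.5 to 75.3 CPM summed in co-culture and 47.2 to 79.4 CPM in controls, and neither passed. Co-culture libraries 2 and 3 stood apart by strand, with a median of 0.124% and 0.211% of a gene's reads on the forward strand against 1.57% to 1.75% in the other 4. Control library 1 stood apart in the balance of GC-rich and GC-poor transcripts, and the count of members that passed is given with and without it. What part these differences between libraries play in the members' values was not tested.

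Most transcripts of mitochondrial ribosomal proteins, like most genes tested, were not called different between co-culture beside ROS-producing cells and control. MRPL54 and MRPS34 were called lower, a share near that of all genes, and no member was called higher. In edgeR's quasi-likelihood test with Benjamini-Hochberg adjustment over 14582 genes, those 2 of 75 members (2.67%) had an adjusted p under 0.05, against 704 genes or 4.83% of all genes tested. Among lower calls alone the background was 2.17% of all genes, and among higher calls 2.66%. The count was 1 of 47 in the large subunit (2.13%) and 1 of 28 in the small subunit (3.57%). At an unadjusted p under 0.05 there were 19 members lower, against 11.5% of all genes, and 2 higher, against 11.7%. DESeq2 called 4 members lower (5.33%) and 0 higher, against 3.12% and 3.96% of all genes. With limma-voom, 2 members were lower (2.67%) and 0 higher, against 2.02% and 2.61% of all genes. By direction, the lower calls made up 2.67% of the members beside 2.17% of all genes, and the unadjusted lower share was 25.3% of the members beside 11.5%.

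The shifts were small and mostly in 1 direction. Of the 75 members, 58 (77.3%) had a log2 fold change below 0, against 50.4% of all genes tested. The median log2 fold change was -0.10 in the large subunit and -0.08 in the small subunit, beside -0.002 over all genes. The range ran from -0.43 (MRPL54) to 0.22 (MRPL24), and 71 members stayed within 0.25 of 0 on the log2 scale. The median absolute fold change was 0.10 and the median standard error 0.07, with standard errors from 0.06 to 0.12. All 3 co-culture values lay below all 3 control values in 19 members (25.3%), against 15.0% of all genes tested. The reverse held in 3 members, MRPL24, MRPS15 and MRPS27, against 14.3% of all genes. These counts describe the list; members share the same 6 libraries and are not replicates.

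**Figure D1:**
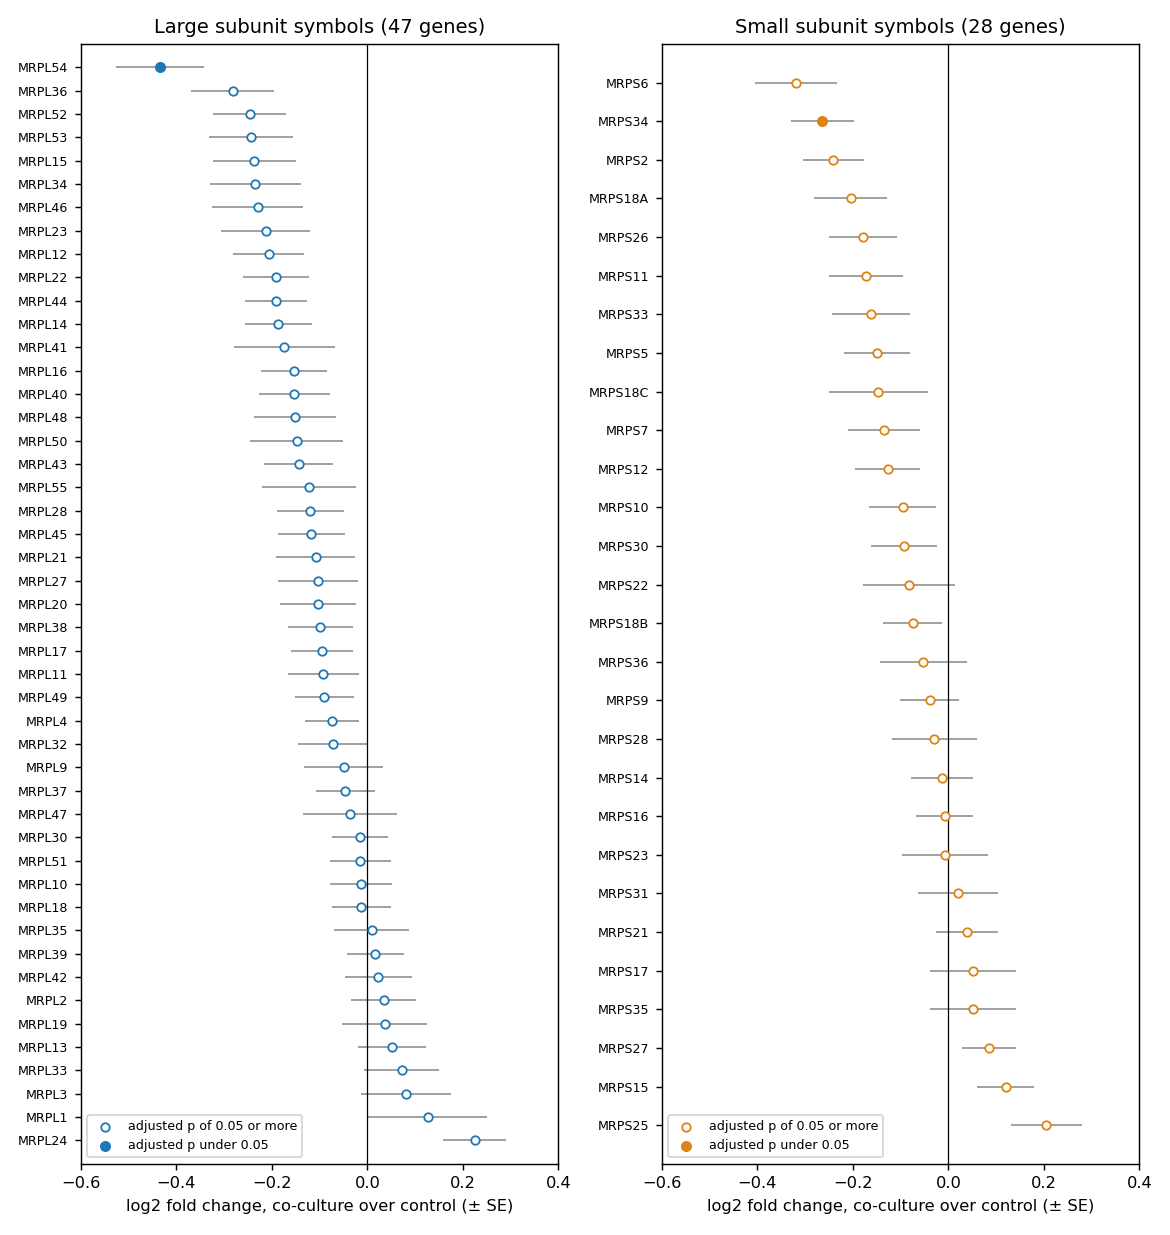
Log2 fold change of each mitochondrial ribosomal protein gene, co-culture over control, with its standard error (horizontal lines), large subunit on the left and small subunit on the right. Filled points mark MRPL54 (-0.43) and MRPS34 (-0.26), and most of the other points sit just left of 0.

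MRPL54, a large-subunit protein that arose in mitochondria, had the lowest fold change of all members. Its level was 19.4, 19.2 and 22.1 CPM in co-culture libraries 1, 2 and 3, and 24.7, 28.3 and 29.2 CPM in control libraries 1, 2 and 3. The groups did not overlap, and control library 1 was the nearest of the controls to the co-culture values. The mean fell from 27.4 ± 2.37 to 20.2 ± 1.60 CPM (SD, n = 3 each). On the log2 scale the fold change was -0.43 ± 0.09 (SE), and edgeR's adjusted p was 0.0271. MRPS34, a small-subunit protein without a bacterial counterpart that is needed for a stable small subunit, had the next smallest p, although MRPS6 and MRPL36 had lower fold changes. It had 86.3, 92.0 and 98.8 CPM in co-culture and 114.9, 112.4 and 106.0 CPM in controls. The groups again did not overlap, and co-culture library 3 came closest to the controls. Its mean fell from 111 ± 4.58 to 92.4 ± 6.25 CPM (SD, n = 3 each) (log2 fold change -0.26 ± 0.07, SE; edgeR adjusted p = 0.0465). Neither gene has a pseudogene named after it in GENCODE release 29.

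Both calls were lost when certain libraries were left out, as were most calls over all genes. MRPL54 kept an adjusted p under 0.05 in 12 of 17 other settings, with log2 fold changes from -0.50 to -0.38, and MRPS34 in 9 of 17, from -0.36 to -0.22. Neither passed once control library 2 or either of the co-culture libraries 1 and 2 was left out (edgeR adjusted p = 0.134, 0.13 and 0.158 in that order for MRPL54, and 0.177, 0.206 and 0.209 for MRPS34). In the same order, those fits called 65, 123 and 74 genes in all, against 704 with every library. Without co-culture library 3, MRPL54 passed (0.0419) and MRPS34 did not (0.0566). With the forward-strand class of the libraries as a batch term, the log2 fold changes were -0.50 and -0.36 and the edgeR adjusted p values 0.236 and 0.214. That class leaves co-culture library 1 as the only co-culture library beside the controls.

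The promoters of the 2 called genes are shown because binding motifs of ETS-family factors, which include the mitochondrial regulator GABP, lie close to their starts. Each sequence runs from 250 bases before to 50 bases after the start in the RefSeq annotation of GRCh38.p14, 5′ to 3′ on the gene's strand. Capitals mark the motif CCGGAAG or its reverse complement. The letters did not go with direction in every gene: MRPS6 (-0.32) and MRPL24 (0.22) hold none of the motifs searched, and MRPS2 (-0.24) holds no ETS motif. MRPL54 lies on the plus strand at chr19:3762432-3762731 and MRPS34 on the minus strand at chr16:1773085-1773384.
MRPL54: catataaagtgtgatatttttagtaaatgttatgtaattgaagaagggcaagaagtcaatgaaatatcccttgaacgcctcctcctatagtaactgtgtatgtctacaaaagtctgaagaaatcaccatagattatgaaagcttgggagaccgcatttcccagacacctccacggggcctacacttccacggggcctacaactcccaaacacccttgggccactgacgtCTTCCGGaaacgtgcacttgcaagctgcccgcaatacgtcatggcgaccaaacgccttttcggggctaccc
MRPS34: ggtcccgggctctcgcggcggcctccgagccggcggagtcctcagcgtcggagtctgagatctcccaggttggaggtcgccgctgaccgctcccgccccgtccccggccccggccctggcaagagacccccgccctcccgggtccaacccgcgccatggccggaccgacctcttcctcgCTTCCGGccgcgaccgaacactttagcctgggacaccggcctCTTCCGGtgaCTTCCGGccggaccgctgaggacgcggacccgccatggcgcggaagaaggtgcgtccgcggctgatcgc

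The motif in the MRPL54 promoter starts at position -21 and the 3 in the MRPS34 promoter at -71, -29 and -19, counted from the start site. Of the 75 members, 67 matched the RefSeq promoter table by symbol. Searched on both strands, CCGGAAG (ETS) was found in 29 of the 67 (43.3%), against 12.2% of all 27305 genes in the table and 21.2% of the 11312 of them that were tested. AAGATGGCG (YY1) was found in 12 members (17.9%), against 2.14% of all genes and 4.41% of tested genes. GCGCANGCG (NRF1) was found in 13 members (19.4%), against 9.02% and 16.3%. CACGTG (the E-box that MYC binds) was found in 10 members (14.9%), against 8.77% and 12.5%. A gene with several start sites counted once if any of its windows held the motif, and each motif was counted on its own wherever it lay relative to the others. Beside a median log2 fold change of -0.09 over all members, those with the ETS letters had one of -0.10, those with the YY1 letters -0.12, those with the NRF1 letters -0.15 and those with the E-box letters -0.16. None of the 4 motifs was found in 20 members.

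**Figure D2:**
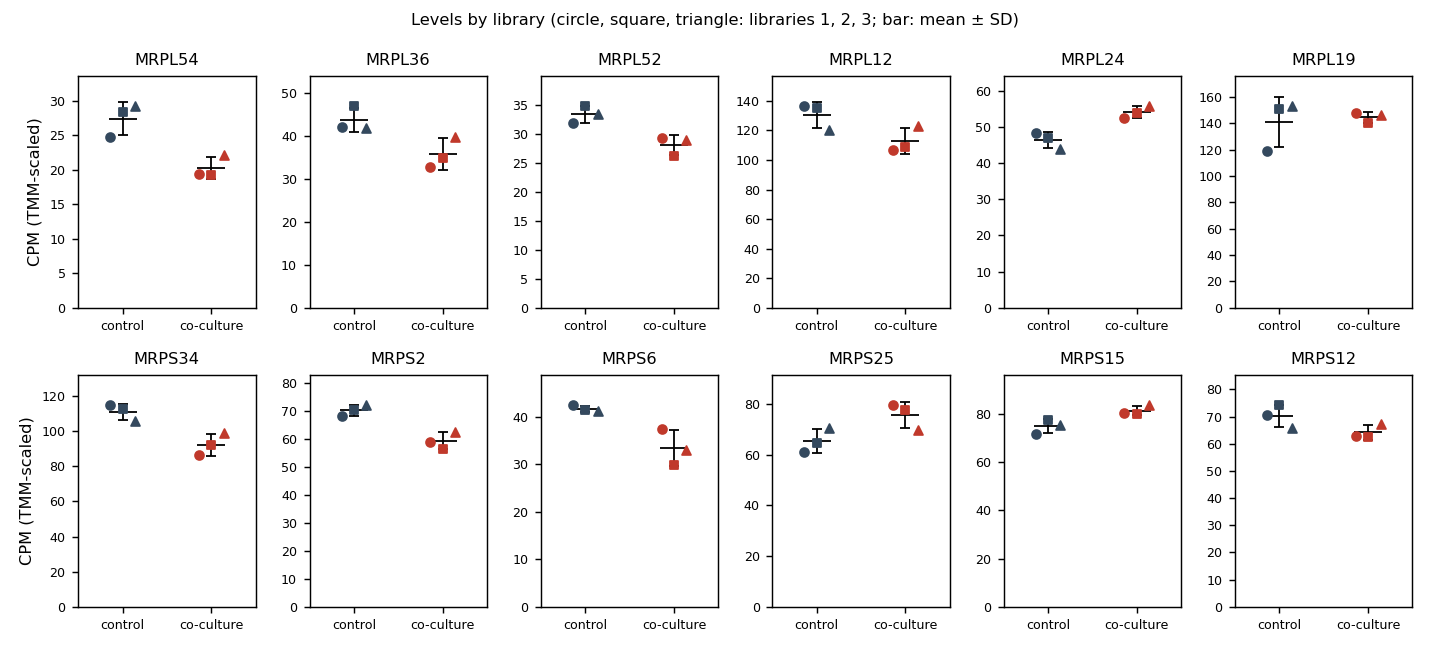
CPM, scaled by trimmed means of M-values, of 12 mitochondrial ribosomal protein genes in control and co-culture libraries. Points are libraries 1, 2 and 3 (circle, square, triangle), and bars give the mean ± SD. In MRPL54, MRPS34, MRPL36, MRPL52, MRPS2 and MRPS6 every co-culture value lies below every control value. The reverse holds in MRPL24 and MRPS15, and in MRPL19 a single control at 118.8 CPM sets the spread.

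In the large subunit, the next members by p were MRPL24, MRPL36 and MRPL52, none of which passed. MRPL24, the counterpart of a bacterial protein near the tunnel exit, had 52.6, 53.9 and 55.8 CPM in co-culture and 48.2, 47.0 and 43.8 CPM in controls. Every co-culture value lay above every control value (log2 fold change 0.22 ± 0.07, edgeR adjusted p = 0.0765). MRPL36, the counterpart of a very small bacterial protein, had 32.6, 34.7 and 39.8 CPM in co-culture and 42.0, 46.8 and 41.8 CPM in controls. Its groups did not overlap, with co-culture library 3 closest to the controls (log2 fold change -0.28 ± 0.09, edgeR adjusted p = 0.0863). MRPL52, found only in mitochondria, had 29.2, 26.1 and 28.9 CPM in co-culture and 31.8, 34.7 and 33.4 CPM in controls (log2 fold change -0.25 ± 0.08, edgeR adjusted p = 0.0866). Its groups did not overlap either, with co-culture library 1 and control library 1 the nearest pair.

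MRPL44, a mitochondrial protein with a ribonuclease III fold near the tunnel exit, had 39.5, 41.3 and 42.6 CPM in co-culture and 47.0, 45.8 and 48.3 CPM in controls. No value crossed between the groups (log2 fold change -0.19, edgeR adjusted p = 0.112). The remaining named large-subunit members by p, MRPL12, MRPL53, MRPL22, MRPL15 and MRPL14, had log2 fold changes between -0.24 and -0.19 and edgeR adjusted p values from 0.128 to 0.14. MRPL22 and MRPL14 did not overlap between groups, and MRPL12, MRPL53 and MRPL15 did.

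In the stalk, which recruits translation factors to the large subunit, MRPL12 had 107.0, 108.5 and 123.2 CPM in co-culture and 136.4, 134.9 and 120.3 CPM in controls. Co-culture library 3 lay above control library 3, so the groups overlapped, and MRPL12, which also binds the mitochondrial RNA polymerase, did not pass (log2 fold change -0.21 ± 0.07, edgeR adjusted p = 0.128). Its partners stood nearer to 0, MRPL11 at -0.09 and MRPL10 at -0.01. Among 7 tunnel-exit proteins the median was -0.12, with MRPL24 the highest and MRPL23 the lowest at -0.21. MRPL45, which tethers the ribosome to the inner membrane beside the exit, stood at -0.12. Among 6 proteins of the central protuberance of the large subunit, the median was also -0.12. None of the stalk, exit or protuberance genes passed. At an unadjusted p under 0.05 in edgeR, 1 stalk gene, 3 exit genes and 1 protuberance gene were lower and 1 exit gene was higher. The shares over all genes tested were 11.5% lower and 11.7% higher. DESeq2 called 0 in each of the 3 lists.

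In the small subunit, MRPS2 and MRPS6 missed the threshold narrowly. MRPS2, the counterpart of a bacterial protein on the solvent side of the subunit, had 58.9, 56.5 and 62.5 CPM in co-culture and 68.1, 70.4 and 72.1 CPM in controls. The groups were well apart, and the edgeR adjusted p was 0.0556 (log2 fold change -0.24 ± 0.06). MRPS6, also with a bacterial counterpart, had 37.5, 29.8 and 32.9 CPM in co-culture and 42.4, 41.3 and 41.2 CPM in controls. Its controls lay close together while its co-culture values spread widely (log2 fold change -0.32 ± 0.09, edgeR adjusted p = 0.0559). DESeq2 called both lower, at adjusted p values of 0.0387 for MRPS2 and 0.0296 for MRPS6, as did edgeR when libraries were scaled by their total reads (0.0298 and 0.0424). MRPS6 has 2 named pseudogenes, and reads that map to several places were not counted, so its level is uncertain.

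MRPS25 and MRPS15 had the highest small-subunit fold changes. MRPS25, found only in mitochondria, had 79.5, 77.6 and 69.8 CPM in co-culture and 61.2, 64.6 and 70.6 CPM in controls, so that co-culture library 3 lay among the controls (log2 fold change 0.21 ± 0.08, edgeR adjusted p = 0.134). It also had the largest forward-strand share of any member, 12.8%, against a median of 0.808%. MRPS15, with a bacterial counterpart, had 80.2, 80.1 and 83.5 CPM in co-culture and 71.7, 77.5 and 75.1 CPM in controls (log2 fold change 0.12, edgeR adjusted p = 0.255). Its groups did not overlap, but the gap was small beside the level. MRPS18A (-0.20), MRPS26 (-0.18), MRPS11 (-0.17), MRPS33 (-0.16) and MRPS5 (-0.15) completed the named small-subunit members by p, with edgeR adjusted p values from 0.137 to 0.263.

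The decoding centre and messenger RNA path were represented by 4 tested genes, MRPS5, MRPS7, MRPS11 and MRPS12, with log2 fold changes between -0.17 and -0.13. None passed in edgeR or DESeq2, and 1 was lower at an unadjusted p under 0.05 in edgeR, against 11.5% of all genes. MRPS12, whose bacterial counterpart guards decoding accuracy, had 62.7, 62.6 and 67.2 CPM in co-culture and 70.4, 74.2 and 66.0 CPM in controls. Control library 3 lay within the co-culture range, and the edgeR adjusted p was 0.282. The MRPS18 paralogues, 3 genes for 1 protein family, lay at -0.20 (MRPS18A), -0.07 (MRPS18B) and -0.15 (MRPS18C). MRPS18A and MRPS30 carry small-subunit symbols, but structures place their proteins in the large subunit, and MRPS30 stood at -0.09. MRPS36, now regarded as a component of the ketoglutarate dehydrogenase complex rather than of the ribosome, stood at -0.05.

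The medians by origin ran in opposite orders in the subunits. In the large subunit, 29 proteins classed as having a bacterial counterpart had a median log2 fold change of -0.07 with 0 called. The 19 classed as mitochondrial had -0.15 with 1 called, MRPL54. The second list includes MRP63 and ICT1, ribosomal proteins whose symbols in the files are not of the MRPL form. In the small subunit the median was -0.11 for 14 tested proteins of bacterial origin. It was -0.04 for 10 classed as mitochondrial, of which MRPS34 was called. This mitochondrial list holds MRPS symbols only, so the small-subunit proteins CHCHD1 and DAP3 are not in it. The classes are coarse: MRPS18B is in the mitochondrial list and its paralogue MRPS18C in the bacterial one. At an unadjusted p under 0.05 in edgeR, the large-subunit list of bacterial origin had 8 genes lower and 1 higher. The small-subunit list of bacterial origin had 3 lower and 0 higher. The mitochondrial lists had 6 lower and 0 higher in the large subunit, and 2 lower and 1 higher in the small subunit. Of all genes tested, 11.5% were lower and 11.7% higher at that threshold. DESeq2 called 0 in the large-subunit list of bacterial origin and 2 lower in the small-subunit one, MRPS2 and MRPS6. The difference between lists was not tested.

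Compared per length of transcript, the levels spanned a wide range. As CPM per kilobase of transcript, averaged over the 6 libraries, MRPL19 (132.7), MRPL12 (118.4) and MRPL42 (117.2) were the highest of the large subunit, and MRPL50 (8.36) and MRPL1 (10.05) the lowest. MRPS34 (99.3), MRPS7 (80.6) and MRPS15 (77.6) led the small subunit, and MRPS17 (12.6) and MRPS11 (12.96) closed it. MRPS34 was thus both the highest small-subunit transcript per length and 1 of the 2 called lower. MRPL54 stood in the middle, at rank 41 of 75 (38.03). Lengths are those of the transcript of median length in GENCODE release 29, and the order depends on them: with the longest transcript MRPL42 stood at 6.92 and MRPL19 at 41.1. A further uncertainty is that 33 members have at least 1 named pseudogene, MRPS21 the most with 8.

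Summed over members, the large subunit reached 2622, 2588 and 2728 CPM in co-culture and 2655, 2900 and 2811 CPM in controls. Co-culture library 3 lay above control library 1, so the sums overlapped. The ratio of the means was 0.949 (2646 ± 73.0 against 2789 ± 124 CPM, SD, n = 3 each). The small subunit reached 1654, 1591 and 1678 CPM in co-culture and 1648, 1766 and 1743 CPM in controls, a ratio of 0.955. Here too control library 1 lay within the co-culture range. The large subunit to small subunit ratio was 1.61 ± 0.0235 in co-culture and 1.62 ± 0.0175 in controls (SD, n = 3 each), a difference smaller than either SD. In bulk samples, fewer cells of a type and less RNA per cell cannot be told apart.

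**Figure D3:**
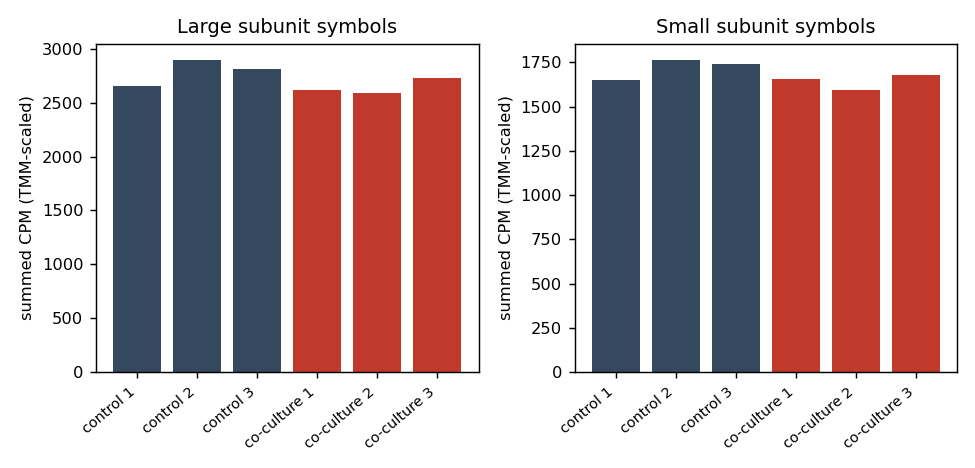
Summed CPM of the 47 large-subunit genes (left) and 28 small-subunit genes (right) in each library; each bar is 1 library. Control library 1 stands with the co-culture libraries, at 2655 and 1648 CPM, below the other 2 controls.

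Control library 1 stood apart from the other 2 controls in these genes. It held the lowest value of 23 members, while control library 2 held the lowest of 1 and control library 3 of 3. Of these 23 members, 11 had a GC content under 45%, 12 had 45% to 60% and 0 had 60% or more. Relative to each gene's mean over the 6 libraries, the median log2 level of the 21 members with a GC content under 45% was -0.08 in control library 1 and 0.08 and 0.05 in control libraries 2 and 3. For the 41 members between 45% and 60% the medians were -0.04, 0.11 and 0.06. For the 13 members with 60% GC or more they were 0.13, 0.13 and -0.004 in the same order. Over all tested genes the medians in control library 1 were -0.10 under 45% GC and 0.14 at 60% GC or more. MRPL19, a protein with a bacterial counterpart and a GC content of 46.2%, had 118.8 CPM in control library 1, 151.2 and 153.1 CPM in the other controls, and 139.9 to 147.7 CPM in co-culture. MRPL3, also with a bacterial counterpart, had 95.7 CPM in control library 1 and 127.4 and 122.0 CPM in the others.

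With control library 1 left out, 15 of 75 members passed in edgeR (20%), against 20.8% of all genes tested. These were MRPL24, higher, and 14 lower, MRPL15, MRPL16, MRPL36, MRPL43, MRPL44, MRPL46, MRPL50, MRPL52, MRPL54, MRPS2, MRPS6, MRPS7, MRPS18A and MRPS34. The median log2 fold changes were then -0.13 in the large subunit and -0.11 in the small subunit. By direction, the lower calls were 18.7% of the members against 10.3% of all genes tested, and the higher call 1.33% against 10.6%. Leaving out control library 2 left 0 members in edgeR, against 0.44% of all genes tested. At an unadjusted p under 0.05 in edgeR, 10 members were then lower (13.3%) and 1 higher (1.33%). Over all genes, both directions together made up 16.6%. The count called was also 0 without co-culture library 1 (0.831% of all genes) and without co-culture library 2 (0.503%). At that unadjusted threshold in edgeR, 10 members were lower (13.3%) and 1 higher (1.33%) without co-culture library 1. Both directions together made up 16% of all genes there. Without co-culture library 2, 7 members were lower (9.33%) and 1 higher (1.33%), against 14.7% of all genes in both directions together.

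**Figure D4:**
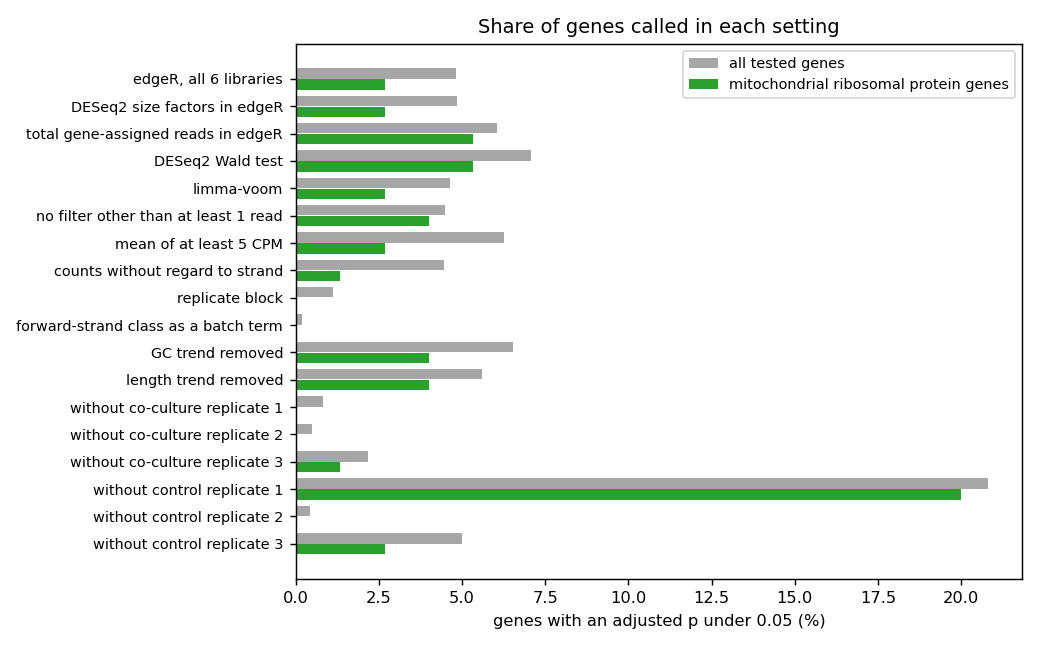
Percentage of genes with an adjusted p under 0.05, both directions together, among all tested genes (grey) and among the mitochondrial ribosomal protein genes (green) in the reported fit (top) and 17 other settings. The members' bar is shorter than the grey bar in every setting, and both are longest without control replicate 1, at 20% and 20.8%.

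Across the members, lower fold changes went with GC-rich transcripts. Pearson's r between log2 fold change and GC content was -0.43 over the 75 members and -0.10 over 14121 tested genes, a description over genes that share the same 6 libraries. All 13 members with 60% GC or more, among them MRPL54, MRPS34, MRPS2, MRPL12 and MRPS26, were below 0, with a median of -0.18, beside -0.04 for all tested genes of that class. For the 41 members between 45% and 60% the median was -0.09, beside -0.03, and for the 21 under 45% it was -0.01, beside 0.04. All 13 stayed below 0 in every setting run. When a GC trend per library was removed from all genes, r among members was -0.19, and without control library 1 it was -0.22. In the first of these settings the class median of the 13 was -0.15, and MRPL24 passed as higher (0.25, edgeR adjusted p = 0.031) beside the same 2 lower members. The members are also short, with a median length of 1286 bases against 2894 for all tested genes. With a length trend per library removed, the median log2 fold changes were -0.08 in the large and -0.05 in the small subunit, and the same 3 members passed.

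**Figure D5:**
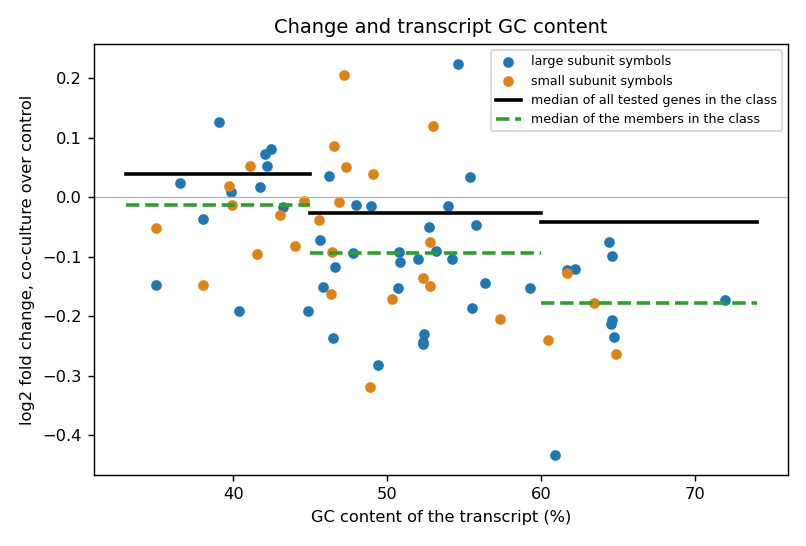
Log2 fold change, co-culture over control, against the GC content of the transcript for the 75 members (points, by subunit). Lines give medians in 3 GC classes for all tested genes (solid) and for the members (dashed), and the members' line lies below in each class, at -0.18 against -0.04 in the highest.

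MRPL46 and MRPS11 point away from each other on chromosome 15, where their starts lie 320 bases apart on opposite strands (88467388 and 88467708 in GRCh38.p14). Their log2 fold changes were -0.23 and -0.17. MRPL46 had 28.0, 26.6 and 29.3 CPM in co-culture and 28.2, 36.1 and 34.1 CPM in controls, and MRPS11 had 48.7, 40.9 and 43.6 CPM in co-culture and 47.9, 52.1 and 49.98 CPM in controls. In both genes 1 library crossed to the range of the other group, so neither separated.

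Ribosomal proteins of the same particle that carry other symbols were tested as well. Of 7, 0 passed in edgeR or DESeq2, and the median log2 fold change was -0.17. At an unadjusted p under 0.05 in edgeR, 4 were lower and 1 higher, against 11.5% and 11.7% of all genes tested. MRP63, now named MRPL57, had 36.3, 35.0 and 34.2 CPM in co-culture and 44.6, 41.1 and 37.98 CPM in controls (log2 fold change -0.23, edgeR adjusted p = 0.105). GADD45GIP1, a large-subunit protein also known as MRPL59, stood at -0.23 (edgeR adjusted p = 0.116), and CHCHD1, a small-subunit protein, at -0.20 (0.117). The groups of all 3, named for the smallest p, did not overlap. Over the 7 genes, 3 were lower and 1 higher without overlap, against 15.0% and 14.3% of all genes tested. DAP3, the GTP-binding protein of the small subunit, stood at 0.13 (edgeR adjusted p = 0.183).

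The genes that build and serve these ribosomes gave 0 calls in edgeR, DESeq2 and limma-voom across the 5 lists tested. Of 23 assembly factors, 4 were lower and 2 higher at an unadjusted p under 0.05 in edgeR. The shares over all genes tested were 11.5% lower and 11.7% higher. The median log2 fold change of the assembly factors was -0.06. RNMTL1, a methyltransferase of the large-subunit ribosomal RNA, stood at -0.24 (edgeR adjusted p = 0.0772), the helicase DDX28 at -0.31 (0.0908) and TFB1M, which dimethylates the small-subunit ribosomal RNA, at 0.25 (0.105). Of 18 translation factors, 1 was lower and 2 higher at that threshold, with a median of 0.01. The initiation factor MTIF2 stood at 0.24 (edgeR adjusted p = 0.155), TACO1, an activator of cytochrome oxidase translation, at -0.17 (0.163), and LRPPRC, which stabilises mitochondrial messenger RNAs, at 0.15 (0.205).

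Of 20 mitochondrial aminoacyl-tRNA synthetases, 3 were lower and 1 higher at an unadjusted p under 0.05 in edgeR. The shares over all genes tested were 11.5% lower and 11.7% higher. The median log2 fold change of the synthetases was -0.05. YARS2 stood at -0.27 (edgeR adjusted p = 0.0901) and MARS2 at -0.32 (0.105). Of 7 genes of mitochondrial transcription and DNA maintenance, 0 reached an unadjusted p under 0.05 in edgeR, and the median log2 fold change was -0.09. POLG, the replicative polymerase, stood at -0.14, the transcription factor TFB2M at -0.19 and the termination factor MTERF at 0.19 (edgeR adjusted p = 0.229, 0.326 and 0.349). Of 10 regulators known to act on such genes, 2 were lower and 1 higher at that threshold. MYC had 14.01, 12.9 and 12.7 CPM in co-culture and 14.5, 17.4 and 17.7 CPM in controls (log2 fold change -0.33, edgeR adjusted p = 0.0939), with no overlap. GABPA, the DNA-binding subunit of GABP, stood at 0.19 (edgeR adjusted p = 0.161) and YY1 at -0.14 (0.172). The groups of these 3 regulators, named for the smallest p, did not overlap. Over the 10 regulators, 3 were lower and 2 higher without overlap, against 15.0% and 14.3% of all genes tested.

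For comparison, the proteins of the cytosolic ribosome, a separate particle in the cytoplasm, had a median log2 fold change of -0.02 over 81 tested genes. RPL36A was the single call among them, higher (log2 fold change 0.65, edgeR adjusted p = 0.00533), and is named here after its value was seen. Nuclear-encoded subunits of the respiratory chain and ATP synthase, the complexes that the products of mitochondrial ribosomes join, had a median of -0.03 over 79 tested genes. In that list 0 passed in edgeR, while DESeq2 called 1 higher and 1 lower. At an unadjusted p under 0.05 in edgeR, 3 were higher and 6 lower, against 11.7% and 11.5% of all genes tested. Non-overlap with lower co-culture values was seen in 1.23% of the cytosolic and 6.33% of the respiratory genes. It was seen in 25.3% of the members and 15.0% of all genes tested. The summed level of the cytosolic genes ran from 34786 to 41133 CPM in co-culture and from 34145 to 42484 CPM in controls. Whether this spread bears on their share of non-overlap was not tested. The differences between these lists were not tested. The cytosolic median lay between -0.14 (strand-class term) and 0.06 (without control library 1) over the other settings, and it was -0.10 without control library 3.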

How the data were processed

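For each of the 6 libraries the authors deposited unnormalised gene counts, whole numbers in 3 strand columns. The libraries were made with Illumina's stranded messenger RNA kit per the labels' protocols. The submitters' processing notes name STAR 2.53a, FastQC and hg18, and the annotation release is not given in the sources used here. Reverse-strand counts were used, and summary lines (24.2% to 28.5% of reads) were left out. Multimapping reads enter no gene's count, so levels of genes with pseudogenes are uncertain.

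Groups came from the sample titles. Genes were filtered with filterByExpr (minimum count 10), scaled by TMM and tested with edgeR 4.0.16 (R 4.3.3) by the quasi-likelihood F test, 3 against 3 libraries, with Benjamini-Hochberg adjustment over 14582 genes at 0.05. Alternatives used DESeq2 1.42.0 and limma-voom (limma 3.58.1), other scalings, filters, strand counting, a replicate term, a strand-class term, GC and length offsets and leaving out each library. The strand class separates co-culture libraries 2 and 3 from the other 4. The biological coefficient of variation was 0.0836 over all genes. Standard errors are the absolute log2 fold change over the square root of F. Libraries of a group differed by more than sampling noise (chi-square per degree of freedom 4.73 to 18.5).

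Lengths and GC content came from GENCODE release 29 (96.8% of tested genes matched by symbol), promoters from RefSeq (GRCh38.p14), and no coordinates from the count files. Named genes are the called members, the 10 of each subunit with the smallest p, the highest and lowest per length, members of set roles, and up to 3 per pathway list; some genes of these lists and of the markers are not reported here. Members and lists were chosen with earlier results of these data known. The scripts were tested on simulated data. Genes encoded by mitochondrial DNA, TWNK and 8 promoters without a table entry are not analysed here.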

Additional observations from a re-analysis of the deposited data

How the results depend on the processing

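The count of 2 called members became 4 with total-read scaling and with DESeq2's Wald test (MRPL54, MRPS34, MRPS2 and MRPS6 in both), 1 with counts taken without regard to strand, and 0 with a batch term for strand class, which left 29 genes called in all. The 4 were 5.33% of the members, against 6.05% of all genes with total-read scaling and 7.08% with DESeq2. Without regard to strand the shares were 1.33% and 4.46%. Total-read scaling also moved the median of all genes to -0.04 and the share of higher calls from 55.1% to 35.1%. Without 1 library at a time, 0 to 15 members and 65 to 3069 genes were called, the highest without control library 1 and the lowest number of genes without control library 2. All genes numbered 123 without co-culture library 1, 74 without co-culture library 2 and 321 without co-culture library 3. The cause of these differences was not tested.

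With the replicate number as a block, 0 members and 164 genes were called, with MRPL54 at -0.44 (edgeR adjusted p = 0.0642) and MRPS34 at -0.27 (0.127). Deviations of same-numbered libraries from their group means correlated at -0.042, -0.085 and -0.0915. The labels do not say whether same-numbered samples were handled together, and these values near 0 cannot settle it.

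The medians and summed ratios moved by less than the spread between libraries under every setting run, -0.14 to -0.07 in the large and -0.11 to -0.03 in the small subunit. Of the 75 members, 46 stayed below 0 and 6 above 0 in the reported fit and all 17 alternatives. The sign reversed only near 0 among the 53 named genes. MRPL42 stood at -0.00902 with total reads and -0.0874 with the GC trend removed, and MRPL10 at 0.00991 with the GC trend and 0.00663 with the length trend removed. Leaving out 1 library gave -0.0464 to 0.0615 for MRPL42, -0.041 to 0.0248 for MRPL10, -0.112 to 0.03 for MRPS36, -0.0726 to 0.1 for MRPL19, -0.0124 to 0.138 for MRPS17 and -0.034 to 0.16 for MRPL3. Levels per length with the longest transcript were added after the lengths were seen. With 3 libraries a group, shifts of the size of a member's standard error, 0.06 to 0.12, were not detectable.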
